A study of Mus musculus with 2 samples.

Results

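Human lincRNA probes were studied in mouse plasma, on mouse arrays that hold probes for loci named after large intergenic noncoding RNAs (lincRNAs) of the human genome beside other probes. The name does not mean that human RNA was measured, and the members with a listed position lie on the mouse genome. The members were all probes whose name starts with humanlincRNA and that are not array controls. There were 1217 of them, each printed as 1 spot, among 61194 spots that are not array controls. They stand for 609 loci, given by the number in the name, and the sign after the number gives the strand. A + probe and a - probe were printed for 608 loci, and the other locus had humanlincRNA2126- only.

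LincRNAs are long noncoding transcripts that lie between protein-coding genes. Many were catalogued from chromatin domains that carry histone marks of an active promoter at one end and of elongating transcription along the body. Such domains do not show which DNA strand is transcribed, and a locus known in this way can be probed on both. LincRNAs are often low in abundance and restricted to few tissues, and their sequence is less conserved between species than that of coding exons. No function is given for the members in the files used here, and the sequences of their probes were not analysed here.

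The sham group and the IRI (liver ischemia/reperfusion injury) group had 1 array each. Without replicates no test between groups could be made, and every count and fold change describes these arrays. The animals were male C57BL/6 mice of 8 to 10 weeks. In the IRI group, blood flow to about 70% of the liver was clipped for 60 minutes and restored for 6 hours, and sham mice were operated on without the clip. Plasma was pooled within a group, and the number of mice in a pool is given as 5 to 8 in one description of the experiment and as 3 in another. Anesthesia and laparotomy were shared by both groups, and a pool shows no spread between mice. RNA released into plasma and RNA carried over from blood cells cannot be told apart in such samples. The plasma label was not checked against cell markers, since of 20 marker genes of hepatocytes, red cells, platelets and leukocytes 1, Tfrc, was found by an identifier on the array.

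Signals are given as processed signals, which are background-subtracted intensities in the scanner's own units. The IRI array was deposited in 2 versions, a scanner file and a column of the series matrix. For the sham array both sources held the same signal (relative tolerance 1e-05) for 62513 of 62513 spots, whereas for the IRI array they did so for 0 of the 1217 members. Results of both versions are therefore given side by side, and both rest on the same sham array. Each array had a scan day of its own, and the day of the scan and the group cannot be told apart.

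Of the 1217 members, 408 were flagged as well above background on the sham array, 578 in the IRI scanner file, and 407 reached the floor used for the matrix. The floor, needed because the matrix holds no flags, was a signal of 16.67, equal to that of the dimmest sham spot flagged in this way. These counts are 33.5%, 47.5% and 33.4% of the members. Over all 59994 spots other than controls the shares were 41.2%, 69.6% and 36.9%, so that the members had a signal less often than the array as a whole in each case, most of all in the IRI scanner file. No test was made of this difference. The array also holds 20 negative-control probes, printed as 1200 spots, and 32.3%, 22.7% and 25.5% of these spots passed the same rules. On the sham array the share of members with a signal was thus close to that of the negative controls.

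**Figure D1:**
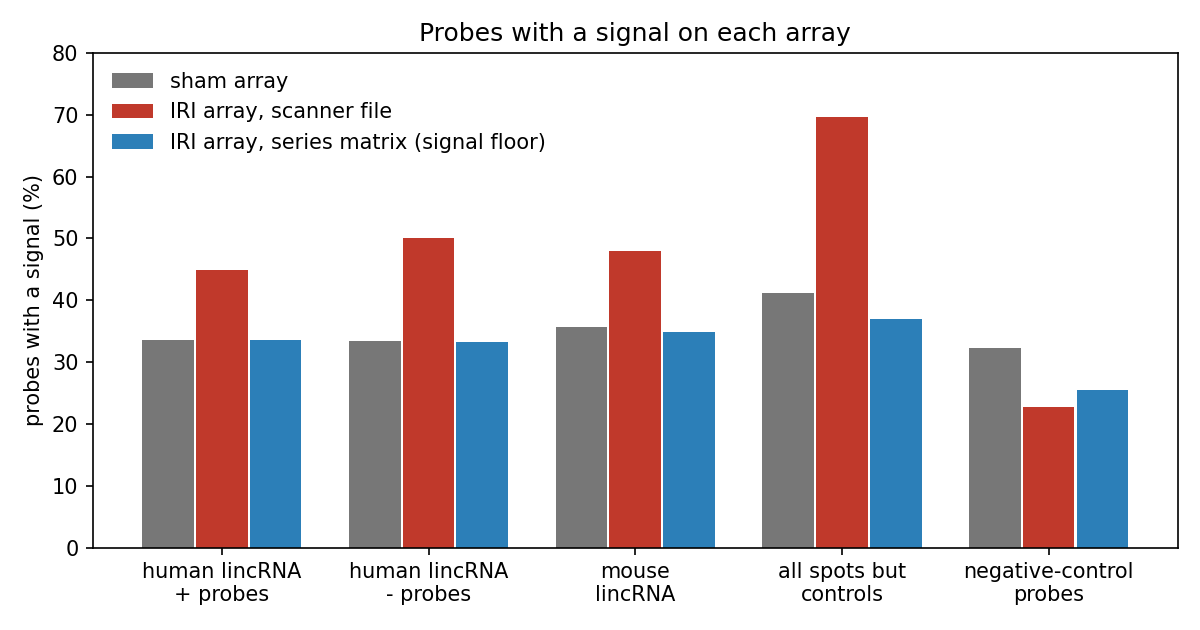
Share of probes with a signal (%, vertical axis) for the + and - human lincRNA probes, the mouse lincRNA probes, all spots but controls and the negative-control probes. Grey bars are the sham array (well above background), red bars the IRI scanner file (well above background) and blue bars the IRI column of the series matrix (signal of 16.67 or more), and on the sham array the human lincRNA bars (33.6% and 33.5%) stand little above that of the negative controls (32.3%).

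A stricter limit was added after these shares had been seen, the 95th percentile of the negative-control spots of the same array. It was 74.4 on the sham array, 57.5 in the IRI scanner file and 57.9 in the matrix column. Above it were 162, 265 and 215 members, or 13.3%, 21.8% and 17.7%, compared with 17.5%, 44.6% and 19.9% of all spots. The mouse lincRNA probes, the class most like the members in design, gave 15.2%, 23.0% and 19.7%. At the flags and the floor, 276 members had a signal on the sham array and in both IRI versions, and 514 had none in any of them.

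The members differed widely in brightness. On the sham array the signal ran from 3.31 to 88825, with a median of 8.73 and an upper quartile of 31.1. In the IRI scanner file the median was 11.1 and the highest signal 22949, and 335 members sat at the lowest value of that file, 2.53. In the matrix column the median was 5.63 and the highest signal 95677. Most members were therefore dim in each version, and a small bright set carried the range.

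The brightest member of the sham array was humanlincRNA2296+, with a signal of 88825, followed by humanlincRNA2330+ with 81137. humanlincRNA2296+ was also the brightest in the IRI scanner file, at 22949, and stood at 44753 in the matrix. The second brightest in the IRI scanner file was humanlincRNA0847-, with 22041 on the sham array, 16529 in the scanner file and 95677 in the matrix, where it was the brightest. humanlincRNA2159- followed it in the matrix with 89699, against 18356 on the sham array and 3072 in the scanner file. On the sham array and in the scanner file each of these probes was above every negative-control spot, of which the highest were 177 and 331. In the matrix the highest negative-control spot was at 19005, and these probes were above it as well. Signals of different probes are not compared as amounts of RNA, because probes differ in how well they bind.

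Each strand was described by its own probe. On the sham array the flag for well above background was set at 204 of 608 + probes and 204 of 609 - probes. In the IRI scanner file 273 + probes and 305 - probes were, and in the matrix 204 and 203 reached the floor. The strands had nearly equal shares on the sham array and in the matrix, and the - probes had more in the scanner file.

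By locus, a signal on a single strand was the most frequent pattern with any signal. On the sham array 33.6% of + probes and 33.5% of - probes had a signal, close to the 32.3% of negative-control spots. Whether single strands were more frequent than such shares give was not tested. Among 340 mouse lincRNA pairs, 151 had a single strand on the sham array. Of the 608 loci with both probes, 79 had a signal on both strands on the sham array, 125 on the + strand only, 125 on the - strand only and 279 on neither. In the IRI scanner file the numbers were 145, 128, 160 and 175, and in the matrix they were 79, 125, 124 and 280.

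The strand with a signal was mostly the same on the sham and IRI arrays. Of the 250 loci with a single strand on the sham array, 129 (51.6%) had the same strand only in the IRI scanner file, 24 (9.60%) the opposite strand only, 54 both and 43 neither. In the matrix 162 (64.8%) kept that strand only, 7 (2.80%) had the opposite strand only, 26 had both and 55 neither. With the limit from the negative controls, 130 loci had a single strand on the sham array, of which 88 had the same strand only and 2 the opposite strand only in the scanner file, and 106 and 1 in the matrix. In the scanner file the opposite strand was seen more after + than after - loci, with 19 of 125 and 5 of 125. The 340 mouse lincRNA pairs gave similar values, with 49.7% on the same strand and 9.93% on the opposite one in the scanner file, and 67.5% and 4.64% in the matrix. Whether the preference belongs to the transcript or to the probe was not tested, since the strands of a locus have different probes.

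**Figure D2:**
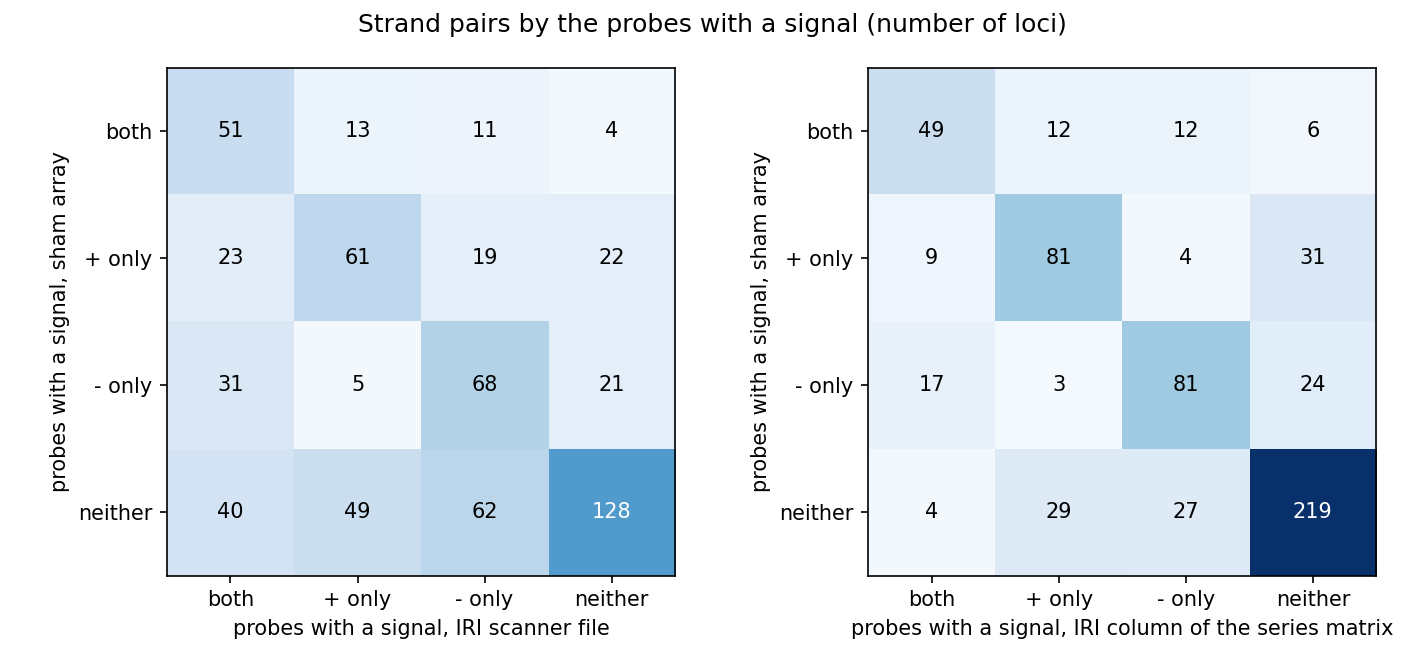
Number of loci by the strands with a signal on the sham array (rows) and in the IRI scanner file (left, columns) or the IRI column of the series matrix (right, columns), for 608 human lincRNA loci with a + and a - probe. Darker cells hold more loci, and loci with a single strand on the sham array mostly lie on the diagonal (61 and 68 on the left, 81 and 81 on the right), with 19 and 5, or 4 and 3, in the cells of the opposite strand.

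For the comparison of IRI with sham, log2 signals were quantile normalized, as in the paper's methods, and the fold change is the normalized IRI signal over the normalized sham signal. A member detected on both arrays was called higher at a fold change of at least 1.5 and lower at 0.7 or under, the limits that the paper uses. A member counted as detected in the scanner files when it was positive and significant, well above background and free of outlier flags on both arrays, which held for 308 members (25.3%, against 35.5% of all spots). In the matrix, where the sham flags and the floor were used, 310 were detected (25.5%, against 29.5%). The spread between replicate spots is known from probes printed more than once. The SD of their log2 fold changes had a median of 0.26 over 4 probes detected in every spot of the scanner files and of 0.25 over 6 in the matrix. Over the 20 negative-control probes, whose spots are mostly dim, the median SD was larger, at 0.98 and 0.71. Neither value includes differences between pools or hybridisations.

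After quantile normalization, the human lincRNA probes were mostly lower after IRI in the scanner files and more often higher than lower in the matrix. In the scanner files 9 of 308 members (2.92%) were at 1.5 or more and 255 (82.8%) at 0.7 or less, with 44 between. Without normalization between arrays the same 308 members gave 111 higher (36.0%) and 138 lower (44.8%), so that most were lower only after scaling. Of all detected spots, 49.3% were higher and 31.4% lower without normalization. After quantile normalization, 19.1% of all 21294 detected spots were at 1.5 or more and 69.7% at 0.7 or less. In the matrix 130 of 310 members (41.9%) were at 1.5 or more and 39 (12.6%) at 0.7 or less, against 32.6% and 19.9% of 17709 detected spots. The counts also depend on the unit of the ratio: on the ratio of the normalized log2 signals, in place of the signals, 6 members were at 1.5 or more and 1 at 0.7 or less in the matrix, and 1 and 163 in the scanner files. The members thus had fewer higher values than the array as a whole in the scanner files and more in the matrix, and these differences were not tested. Of 112 detected negative-control spots in the scanner files, 0 were higher and 86.6% lower, shares near those of the members. Of 168 in the matrix, 17.3% were higher and 34.5% lower, unlike the members. Mouse lincRNA probes were close to the members in both versions, with 0.541% higher and 85.9% lower of 185, and 40.2% higher and 13.6% lower of 184.

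The median log2 fold change of the members was -2.42 in the scanner files and 0.32 in the matrix, against -1.78 and 0.21 for all detected spots. The scanner value depends on the scaling, since without normalization between arrays the medians were -0.15 for members and 0.55 for all spots. Relative to all detected spots the members were lower by 0.65 (log2) after quantile normalization and by 0.70 without it, and by 0.48 with normexp background correction. In the matrix they were higher by 0.11 and 0.15. These offsets are small beside the range of the members themselves, from -7.22 to 4.06 in the scanner files and from -4.36 to 3.62 in the matrix. The - probes had a median of -2.71 in the scanner files and 0.43 in the matrix, and the + probes -2.19 and 0.20.

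**Figure D3:**
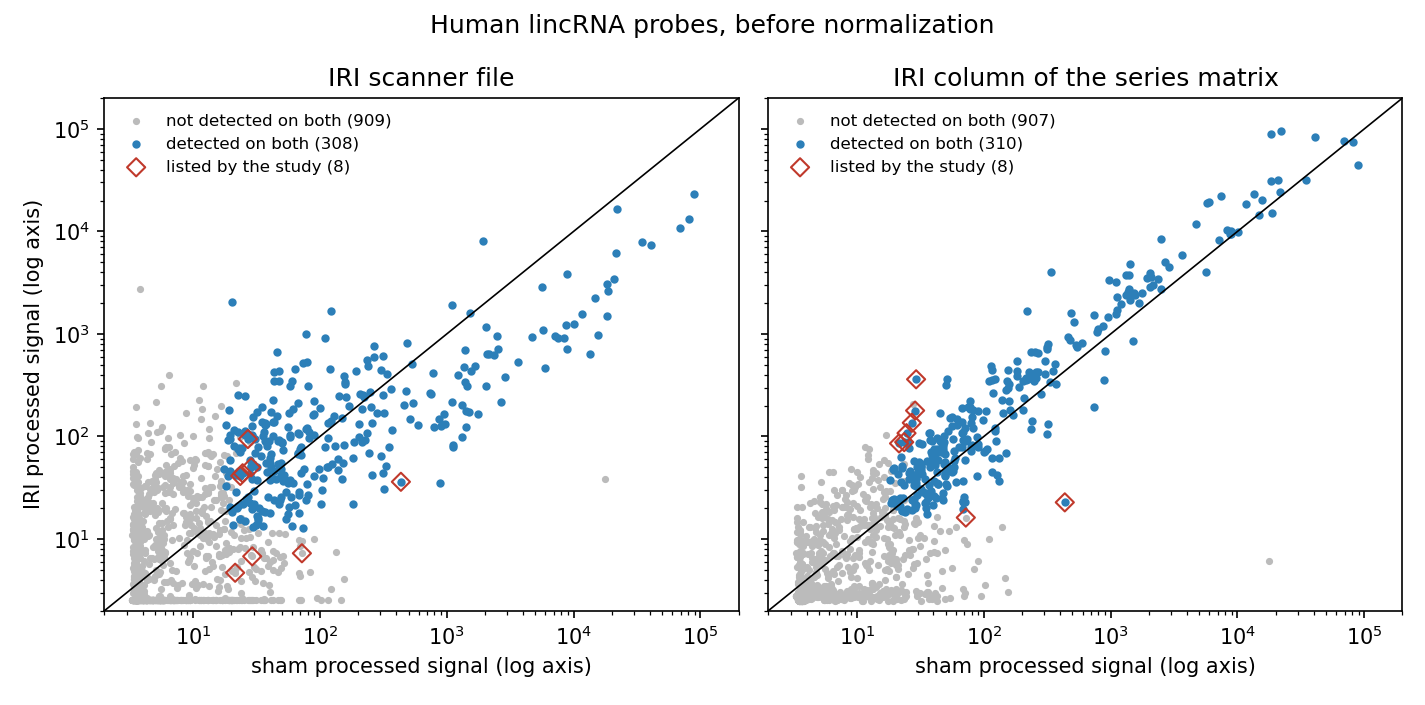
Processed signal of the 1217 human lincRNA probes on the sham array (horizontal, log axis) and on the IRI array (vertical, log axis), from the scanner file (left) and the series matrix (right), before normalization. Blue points are detected on both arrays (308 and 310) and grey points are not. Red diamonds are the 8 members that the study lists as changed, and the black line marks equal signals. On the left all but 5 of the 77 detected members with the brightest sham signals lie below the line. On the right 64 of the 78 brightest lie above the line. After normalization, which is not plotted, 29 of these 78 are past a threshold, 16 higher and 13 lower.

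The fold change moved with the sham signal. When detected members were split by sham signal into 4 groups of nearly equal size, their median log2 fold change in the scanner files was -0.74 in the dimmest group, with sham signals from 17.6 to 37.1, and then -1.82, -2.87 and -5.27. All detected spots in the same ranges had -0.27, -1.14, -2.43 and -4.51. In the matrix the members had 0.86, 0.40, 0.29 and -0.05, and all spots 0.78, 0.30, 0.02 and -0.07. Within each group the members thus stood below all spots in the scanner files and above them in the matrix. A dim sham signal enters both axes of this comparison, and members whose sham or IRI signal fell short were left out.

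**Figure D4:**
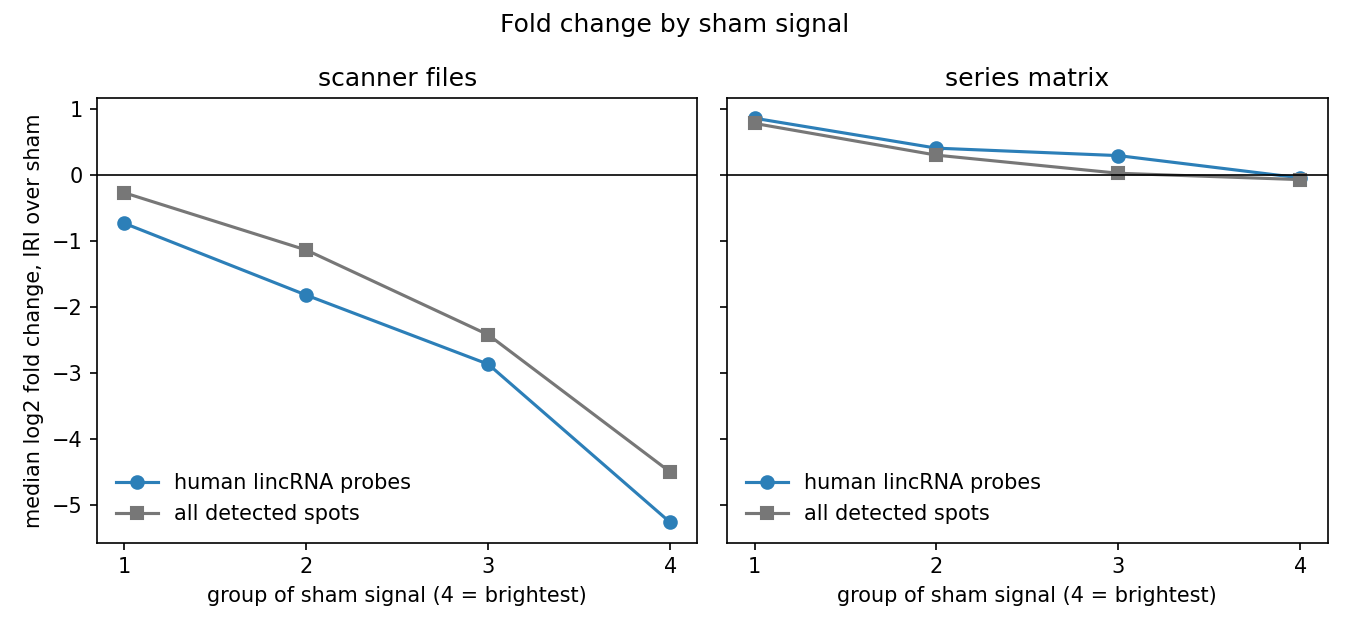
Median log2 fold change of IRI over sham (vertical) by group of sham signal (horizontal, 4 is the brightest) in the scanner files (left) and the series matrix (right). Blue circles are detected human lincRNA probes and grey squares all detected spots in the same range of sham signal, and both go down with the sham signal, from -0.74 to -5.27 for the members on the left and from 0.86 to -0.05 on the right.

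In the scanner files the members higher after IRI were dim on the sham array, and in the matrix they were found at all levels. The 9 in the scanner files had sham signals from 18.2 to 77.3, near or under the limit of 74.4 from the negative controls. The 130 in the matrix had sham signals from 18.2 to 40500, with a median of 46.2, and 16 of them were among the 78 members with the brightest sham signals. When a signal above the negative-control limit was asked for on both arrays, 130 members were left in the scanner files, 1 of them higher (humanlincRNA0926+) and 126 lower, and 148 in the matrix, 42 higher and 24 lower. The shares over all spots under the same limit were 9.85% higher and 85.8% lower in the scanner files, and 21.8% and 19.2% in the matrix.

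In the scanner files the highest fold change was that of humanlincRNA0111+. Its sham signal was 20.3 and its IRI scanner signal 2058, which gave a log2 fold change of 4.06 ± 0.33, where the error is that of Feature Extraction for the 2 spots. In the matrix its IRI signal was 4.25, below the floor. humanlincRNA2077- went from 22.8 to 253, with a log2 fold change of 1.33 ± 0.29, and humanlincRNA2268- from 19.2 to 180, with 1.24 ± 0.33. Unlike humanlincRNA0111+, these were also higher in the matrix, at 49.7 and 48.2, with log2 fold changes of 1.48 and 1.73. All 3 members had sham signals within the range of the negative-control spots.

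The lowest fold changes in the scanner files came from bright members. humanlincRNA1883+ went from 13509 to 638, a log2 fold change of -7.22 ± 0.20, and humanlincRNA0318+ from 15538 to 987, with -6.87 ± 0.20. In the matrix their IRI signals were 22963 and 20113, both above the sham signals. The log2 fold changes there depended on the scaling, with 0.23 and -0.15 after quantile normalization, 0.77 and 0.37 without normalization, and 1.03 and 0.64 with the 75th percentile. humanlincRNA1211+ went from 885 to 34.9 in the scanner file and to 357 in the matrix. Its log2 fold changes were -7.13 ± 0.23 and -1.89, so that it was lower than on the sham array in both versions and among the 3 lowest of each.

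In the matrix the highest fold change was that of humanlincRNA0324+, with a signal of 29.2 on the sham array and 361 after IRI, a log2 fold change of 3.62 or 12.3-fold. The scanner file gave 6.77 for IRI, a spot without the flag for well above background, and a bound depends on the scaling, with the member at least 2.31-fold lower after IRI without normalization and at least 6.96-fold lower after quantile normalization. humanlincRNA0077+ went from 338 to 4047 in the matrix, with a log2 fold change of 2.96, and its sham signal was above the limit from the negative controls. Its scanner signal was 409, a log2 fold change of -2.83 after quantile normalization and 0.28 without normalization. humanlincRNA2145- went from 28.7 to 179, with a log2 fold change of 2.73.

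Among the lowest in the matrix, humanlincRNA0002- went from 435 to 22.8, a log2 fold change of -4.36. Its scanner signal was 36.1, with a log2 fold change of -6.09 ± 0.23. humanlincRNA1050- went from 744 to 196 in the matrix and to 265 in the scanner file, with log2 fold changes of -2.44 and -4.46 ± 0.20. These members had signals above the negative-control limit on the sham array and were lower in both versions, also without normalization, where humanlincRNA0002- had -4.25 and -3.59 and humanlincRNA1050- had -1.93 and -1.49 in the matrix and the scanner files.

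The study lists 8 members as changed after IRI, all of them as intergenic. They were chosen from these same arrays, so that their direction is no independent evidence. The 6 members at 1.5 or more on the ratio of log2 signals in the matrix were the 6 listed as increased, and the 1 at 0.7 or less, humanlincRNA0002-, was 1 of the 2 listed as decreased. Positions are those of its lists, on the mouse build mm9 that the array header names. humanlincRNA0324+ is on chromosome 19 from 60557631 to 60566357. humanlincRNA2145- is on chromosome 8 from 36576267 to 36626810. humanlincRNA0817- is on chromosome 7 from 91063367 to 91070194. humanlincRNA2237- is on chromosome 15 from 34736913 to 34748231. humanlincRNA1543- is on chromosome 5 from 53272406 to 53294772, and humanlincRNA0065+ on the same chromosome from 106060485 to 106072159. These 6 are listed as increased. The other two are listed as decreased, humanlincRNA0002- on chromosome 4 from 153058456 to 153063660 and humanlincRNA1526- on chromosome 5 from 42291848 to 42304093. The spans run from 5204 to 50543 bases, far longer than a probe.

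The 6 listed as increased had sham signals from 21.4 to 29.2 and matrix IRI signals from 85.5 to 361, and were 4.47-fold to 12.3-fold higher. All of them were under the negative-control limit on the sham array and above it in the matrix. In the IRI scanner file 4 of the 6 were well above background. The signals there were 41.2 for humanlincRNA0065+, 43.8 for humanlincRNA1543-, 50.1 for humanlincRNA2145- and 94.4 for humanlincRNA2237-. All 4 were higher than on the sham array without normalization, with log2 fold changes from 0.80 to 1.80, and 0 of them after quantile normalization, with values from -1.02 to -0.14. humanlincRNA0817-, with 21.4 on the sham array and 85.5 in the matrix, was at 4.69 and not well above background in the scanner file, at least 1.69-fold lower without normalization and at least 4.73-fold lower after it. humanlincRNA1526- had 72.1 on the sham array, 16.2 in the matrix, just below the floor, and 7.26 in the scanner file, where it was not well above background, with a bound of at least 5.69-fold lower without normalization and of at least 22.5-fold lower after it.

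Some opposite strands of the listed members had a signal of their own, and others had none in any version. humanlincRNA0324- was bright, with 5621 on the sham array, 4050 in the matrix and 2841 in the scanner file, while humanlincRNA0324+ was dim on the sham array and had the highest fold change of the matrix. humanlincRNA0065- was at 34855 on the sham array and at 31524 in the matrix, a log2 fold change of -0.50. Its scanner signal was 7902, a log2 fold change of -4.99 after quantile normalization and -2.14 without normalization. humanlincRNA0817+ had 61.3 on the sham array, 130.0 in the matrix and 186 in the scanner file, and was higher in the matrix on both strands. The probes humanlincRNA1526+, humanlincRNA1543+ and humanlincRNA2145+ were not well above background in any version, with signals from 2.53 to 8.59.

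Fold changes could be compared between strands where both probes of a locus were detected on both arrays, which held for 51 pairs in the scanner files and 49 in the matrix. The fold changes of the strands often differed. The median size of the difference between their log2 fold changes was 1.58 in the scanner files and 0.87 in the matrix. Beside the SDs between spots of 0.26 and 0.25 for detected probes and 0.98 and 0.71 for negative controls, a difference of the median size in the matrix is thus not clearly larger than the spread of dim spots. In the scanner files both strands were at 0.7 or less in 34 pairs, at 1.5 or more in 0, and past opposite thresholds in 3. In the matrix both were at 1.5 or more in 8 pairs, at 0.7 or less in 0, and past opposite thresholds in 10. Without normalization the pairs past opposite thresholds numbered 12 in the scanner files and 7 in the matrix, with both strands higher in 8 and 10 pairs. Differing strands were also seen in the mouse lincRNA pairs after quantile normalization. In the matrix 5 of 27 were past opposite thresholds and 5 both higher, with a median difference of 0.75. In the scanner files 0 of 30 were past opposite thresholds and 24 both lower, with a median difference of 1.93.

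Across the 49 pairs of the matrix, the log2 fold changes of the + and - probes had a Pearson r of -0.39 and a Spearman rho of -0.39. Without the 5 pairs that hold a listed member these were -0.28 and -0.30 over 44 pairs, of which 7 had opposite thresholds. With the dependence on signal level removed by a lowess line, r was -0.38. Across the 51 pairs of the scanner files, r was 0.22 and rho 0.24. The pairs share the same 2 arrays and their normalization, and the values are descriptions without a test. For mouse lincRNAs r was -0.17 over 27 pairs in the matrix and -0.05 over 30 in the scanner files.

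**Figure D5:**
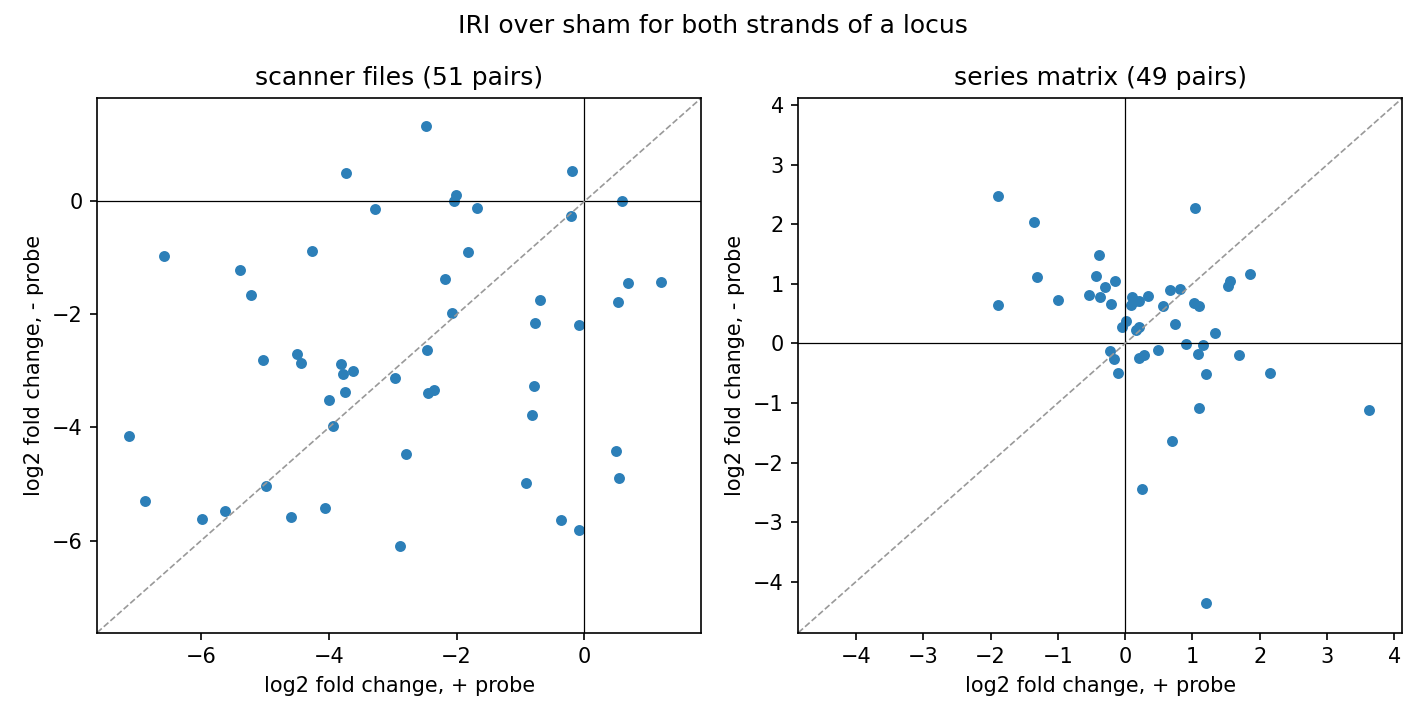
Log2 fold change of IRI over sham for the + probe (horizontal) and the - probe (vertical) of human lincRNA loci with both probes detected on both arrays, in the scanner files (left, 51 pairs) and the series matrix (right, 49 pairs). Each point is a locus and the dashed line marks equal change; on the left most points lie below 0 on both axes, and on the right 10 pairs lie past opposite thresholds (7 without normalization).

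The largest difference between strands in the matrix was at humanlincRNA0002. Its + probe went from 60.9 to 147 and its - probe from 435 to 22.8, with log2 fold changes of 1.20 and -4.36. At humanlincRNA0324 the + probe had 3.62 and the - probe -1.12. At humanlincRNA2237 the + probe went from 315 to 107, a log2 fold change of -1.88, and the - probe from 27.0 to 136, with 2.47. At humanlincRNA0002 and humanlincRNA2237 the probes were past opposite thresholds also with the 75th percentile and without normalization. The log2 fold changes themselves were larger in size than the SD of 0.71 of the negative controls. Without normalization humanlincRNA0002+ had 1.27, which is past the threshold of 0.585 by less than that SD. At humanlincRNA0324 the probes were not past opposite thresholds in these settings, because the - probe then had -0.21 and -0.47. In the IRI scanner file the signals were 35.0 and 36.1 at humanlincRNA0002, where both strands were lower than on the sham array, with log2 fold changes of -2.89 and -6.09.

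The other pairs past opposite thresholds were picked out after their values had been seen. In the matrix, humanlincRNA0847+ went from 70.4 to 23.2 and humanlincRNA0847- from 22041 to 95677, with log2 fold changes of -1.36 and 2.03. humanlincRNA2333+ went from 37.4 to 50.8 and humanlincRNA2333- from 323 to 133, with 0.69 and -1.64. humanlincRNA1901+ went from 68.8 to 23.4 and humanlincRNA1901- from 154 to 449.6, with -1.30 and 1.12. The remaining loci were humanlincRNA0955, humanlincRNA1211, humanlincRNA2129 and humanlincRNA2296. Of these matrix pairs, humanlincRNA0847, humanlincRNA1211 and humanlincRNA1901 were past opposite thresholds also without normalization. The pairs of humanlincRNA0955, humanlincRNA2129, humanlincRNA2296 and humanlincRNA2333 were not. The 3 pairs of the scanner files were humanlincRNA0691, humanlincRNA0926 and humanlincRNA2077. There humanlincRNA0691+ went from 45.4 to 671 and humanlincRNA0691- from 40.7 to 61.1, with 1.21 and -1.42, and humanlincRNA0926+ from 77.3 to 1004 and humanlincRNA0926- from 57.6 to 103, with 0.69 and -1.45. In the matrix the + probes of these loci were also higher than on the sham array, with log2 fold changes of 1.09 and 1.09, and the - probes had 0.62 and -0.18. Without normalization the scanner signals of humanlincRNA0691 and humanlincRNA0926 were higher after IRI on both strands. None of the 3 scanner pairs was then past opposite thresholds.

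The largest differences in the scanner files were at humanlincRNA2410, humanlincRNA1828 and humanlincRNA0305. humanlincRNA2410+ went from 110 to 909 and humanlincRNA2410- from 1431 to 179, with log2 fold changes of -0.09 and -5.81. humanlincRNA1828+ went from 8865 to 715 and humanlincRNA1828- from 28.7 to 52.0, with -6.58 and -0.97. humanlincRNA0305+ went from 21.0 to 115 and humanlincRNA0305- from 1557 to 430, with 0.54 and -4.89. Without normalization the dimmer sham signal of each locus went up and the brighter one went down, with log2 values of 3.04 and -3.00, 0.86 and -3.63, and 2.45 and -1.86. In the matrix the bright probes of these loci stayed near or above sham, at 2527, 10182 and 2401.

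Other members had a signal on a single array. In the scanner files 99 were well above background on the sham array only and 269 on the IRI array only. These are 8.13% and 22.1% of the members, against 5.64% and 34.1% of all spots other than controls. For the negative-control spots the shares were 22.5% and 12.8%. With the lowest signal well above background in place of the dim array, 96 of the 99 had a bound of 0.7 or less without normalization and 99 after quantile normalization. The count after normalization cannot show a change of the members themselves, because each bound then includes the shift of the whole IRI array. Even humanlincRNA0141+, with a sham signal close to the floor of 16.67, passed after normalization, but it did not pass without it. The largest bounds were those of humanlincRNA0075+, from 154 on the sham array to 4.05, and humanlincRNA1273+, from 146 to 2.53. They were lower by at least 12.1-fold and 11.5-fold without normalization, and by at least 57.9-fold and 54.4-fold after it, which includes the shift of the whole IRI array. In the matrix both were also below the floor, at 3.02 and 4.17. Their sham signals were above the negative-control limit of 74.4 but under the highest negative-control spot of that array, at 177. These loci also had the highest sham signals among those that went from a signal on one strand to the other, as humanlincRNA0075- went from 5.10 to 44.2 and humanlincRNA1273- from 16.5 to 25.4 in the scanner file. Both of these IRI signals were under the negative-control limit of 57.5, and the sham signal of humanlincRNA1273- was just under 16.67. After quantile normalization the log2 fold change was 1.90 for humanlincRNA0075- and -0.89 for humanlincRNA1273-. In the matrix humanlincRNA0075- was at 9.68, below the floor, and humanlincRNA1273- at 40.1.

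Of the 269 seen on the IRI array only, 27 had a bound of 1.5-fold or more after quantile normalization and 161 without normalization. The largest was that of humanlincRNA2438+, at least 27.6-fold higher after normalization and at least 164-fold without it, with a sham signal of 3.83 and IRI signals of 2739 in the scanner file and 2.77 in the matrix. humanlincRNA0933+ followed after normalization, with 6.47 and 396, at least 5.29-fold higher, or at least 23.7-fold without normalization, and 45.2 in the matrix. The matrix had 98 members on the sham array only and 97 after IRI only, or 8.05% and 7.97%, against 11.6% and 7.40% of all spots. Among the 97, the largest bound was at least 7.80-fold after normalization and 12.4-fold without it, and among the 98 it was at least 8.57-fold and 9.23-fold, for humanlincRNA0075+. Thus the large signal of humanlincRNA2438+ stood in a single version of the IRI array, whereas the lack of a signal from humanlincRNA0075+ and humanlincRNA1273+ was seen in both.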

How the data were processed

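Plasma RNA of 1 sham pool and 1 IRI pool was hybridised to Arraystar Mouse LncRNA Microarray v2.0 arrays after random-primed labelling. Intensities were read from the scans by the authors in Feature Extraction (Agilent, 11.0.1.1), and they deposited for each spot the processed signal, its error, the median signal, the local background and flags, without normalization between arrays. The deposited series matrix holds linear intensities of unstated processing, and its columns without a sample number 0. Samples were grouped by their labels.

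Quantile normalization of log2 signals left out array controls and was run in Python 3.11.15 with numpy 2.4.6, pandas 2.3.3, scipy 1.17.1 and statsmodels 0.14.6. It was tested on simulated data and against limma 3.58.1 in R 4.3.3. Precision is limited by the number of arrays, and each member rests on a single spot. Bounds put the dim array at its lowest signal well above background, or at the spot's own if higher, and the matrix floor in its place.

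The members, lists, matrix floor and rules were chosen with earlier results of these data known. Named members were those in the study's lists of changed LncRNAs, the 3 highest and 3 lowest fold changes and the 3 largest strand differences of each version, the 2 brightest per array, the 2 largest bounds each way in the scanner files and the 2 brightest loci with switched strands there. Opposite strands of listed members were added. Alternatives covered detection flags, outlier spots, normalization (75th percentile, detected spots only, none), normexp with an offset of 50, fold thresholds and scale, filters on dim members, and the matrix floor. The limit from negative controls (95th percentile) and the lowess line (span 0.3) were alternatives chosen after seeing the data. No test was made.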

Additional observations from a re-analysis of the deposited data

How the results depend on the processing

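No paired analysis was possible because each group has 1 array. Of 93 recomputed counts and medians, 48 stayed within 1.5 times the count or within the SD between spots, 44 moved further and 1 reversed, and the cause was not tested unless the setting itself leaves members in or out. With the series matrix in place of the scanner file, the median log2 fold change reversed from -2.42 to 0.32, 130 members were higher and 39 lower, and the strands differed by 0.87. In the scanner files, the members counted as detected numbered 644 with positive and significant spots only and 677 when a signal on at least one array was enough, with both probes of a pair in 179 and 197. Above the negative-control limit 130 members were left, 11 pairs with both probes and 108 with one, and 1 member was higher and 126 lower, with a median of -4.11.

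Higher and lower members and the median were 111, 138 and -0.15 without normalization. With the level trend removed they were 77, 161 and -0.63, with members above the median sham signal 1, 149 and -4.06, and with all members 251, 679 and -0.83. Quantile normalization over detected spots gave 60 higher members and a median of -1.07, normexp 5 and -1.42, and thresholds of 2.0 and 0.5 gave 5 higher. On the ratio of log2 signals 1 was higher and 163 lower. In the matrix the median was 0.80 with the 75th percentile, 0.051 with no floor, where 125 members were lower, and 0.65 with sham spots that are positive and significant, where 209 were higher. Thresholds of 2.0 and 0.5 gave 69 higher and 22 lower, the ratio of log2 signals 6 and 1, and the negative-control limit 148 detected members, 42 higher and 24 lower.

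Among the named members detected in the scanner files, humanlincRNA0065+ reversed to 0.59 with quantile normalization over detected spots and 0.81 without normalization, humanlincRNA1543- to 0.56 and 0.83, humanlincRNA1828- to 0.38 and 0.86, and humanlincRNA2145- to 0.34 and 0.80. humanlincRNA0077+ reversed to 0.28 without normalization. From values near 0, humanlincRNA2237- turned from -0.14 to 1.19 with quantile normalization over detected spots and 1.80 without normalization. humanlincRNA2410+ turned from -0.09 to 1.45 and 3.04 in the same settings. In the matrix no named member past a threshold reversed under the 75th percentile or without normalization, but 4 others turned sign, with the quantile value first and the 75th percentile second: humanlincRNA0305- from -0.01 to 0.89, humanlincRNA0318+ from -0.15 to 0.64, humanlincRNA1828+ from -0.41 to 0.46 and humanlincRNA2330+ from -0.03 to 0.14. Each member is 1 spot, and 162 members were above the negative-control limit on the sham array.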

Other observations

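The study's lists of changed LncRNAs place 4 probes named by an EST accession at human lincRNA loci whose numbers are not among the 609. BB761138 had a signal of 238 on the sham array, 124677 in the IRI scanner file and 23.1 in the matrix. BB722258 had 300.2, 1654 and 23.8. AV038163 had 46470, 84151 and 1319. BB709579 had 149, 134 and 29.6. In the matrix all 4 were lower than on the sham array, with quantile-normalized log2 fold changes from -5.53 to -2.30. Before normalization, 3 of the 4 had a higher signal in the IRI scanner file than on the sham array. When the scanner files were quantile normalized too, only BB761138 stayed higher, with a log2 fold change of 6.05. BB722258 then had -0.98, AV038163 -1.54 and BB709579 -2.85. The lists were drawn from these arrays.

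Among the members, humanlincRNA1992+ was left out of the detected members because its sham spot carried an outlier flag. Its signal was 17598 on the sham array, 38.2 in the IRI scanner file and 6.09 in the matrix. humanlincRNA1835+ carried the flag in the IRI scanner file, with a signal of 186 there, 11.7 on the sham array and 2.77 in the matrix.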
